A study of Homo sapiens with 8 samples.

Results

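AFF1, AFF4, MLLT1, MLLT3, CDK9, CCNT1 and CCNT2 encode subunits of the machinery that moves RNA polymerase II into productive elongation. They were chosen by gene symbol, and all 7 were found in the deposited annotation. They held 144 of the 287329 probe sets measured, each of which reads an exon or a stretch of one. Of these, 132 passed a filter on low values, and the 7 genes were summarised among 16145. RNA of HEK293 cells, a line derived from human embryonic kidney, had been hybridised to Affymetrix exon arrays. The control line was wild type, and the other, labelled shELL, carried a stable knockdown of the elongation factor ELL. Each line was left unstimulated or was given epidermal growth factor (EGF) at 50 ng/mL for 1 h, in 2 biological replicates, so that 4 groups of 2 arrays were compared. The sources used here do not say whether the shELL line is a single clone or whether the control line carries a control hairpin.

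Positive transcription elongation factor b (P-TEFb) is a kinase, CDK9, bound to cyclin T1 (CCNT1) or cyclin T2 (CCNT2), and it phosphorylates the polymerase and the factors that hold it paused near the promoter. In the super elongation complex, the scaffold proteins AFF1 and AFF4 join P-TEFb to an ELL protein and to MLLT1 (ENL) or MLLT3 (AF9), whose YEATS domains bind acylated histones. The complex is known for the rapid induction of immediate-early genes such as EGR1, and AFF1, AFF4, MLLT1 and MLLT3 are known as fusion partners of MLL (KMT2A) in leukaemia.

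Values are log2 gene values after quantile normalization between arrays, each summarised over the probe sets of a gene, so levels are compared between arrays and not between genes. Before normalization the arrays were not on 1 scale, with 75th percentiles from 2.17 to 5.16. Replicate 1 of shELL with EGF, the dimmest, stood apart: its median correlation with the rest was 0.81, against 0.91 to 0.95 for the other arrays. GAPDH, a glycolytic enzyme, was between 8.03 and 9.10 on 4 arrays (control without EGF, and replicate 2 of shELL with and without it) and between 6.61 and 7.48 on the other 4. ELL, the targeted gene, was at 2.62 ± 0.18 (SD, n = 4) in control and 3.02 ± 0.58 (SD, n = 4) under the label shELL, with both EGF states pooled. The exact two-sided permutation p, which did not keep the states apart, was 0.171, where 4 arrays against 4 can reach 0.0286. ELL was not lower under the label shELL, and the difference of 0.40 was 0.02 once the dimmest array was left out. Its gene value was above background, defined below as 2.77, on only 3 of the 8 arrays. A decrease had little room to show at that level. Which line carries the knockdown is therefore known from the labels and not from ELL itself. Of 6 HEK293 markers, NEFL, VIM and LIN28B were above background on all 8 arrays, IRS4 on 6, and NEFM and PAX2 on none. Of 5 blood, 4 hepatocyte and 5 fibroblast markers none was above it on all 8 arrays, and of 5 keratinocyte markers 1 was. Above it on no array were 2 of the blood, 4 of the hepatocyte, 2 of the fibroblast and 1 of the keratinocyte markers. The others were above it on at least some arrays. Background here is the 95th percentile of olfactory receptor genes, 2.77, or 2.53 for a single probe set. The genes behind 2.77 were those left by the filter on low values, which can raise that level, while the probe sets were unfiltered.

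The promoters of the genes whose values vary most, largely between replicates, and of AFF4 are shown first. They were searched for short sequence motifs, because EGF is known to act on immediate-early promoters through such motifs. Whether any motif bears on the values of these genes was not tested. All 7 genes matched the RefSeq promoter table (GRCh38.p14), and the windows are the 250 bases before the annotated start, 5′ to 3′ on the strand of the gene. Capitals mark motifs that were searched on both strands: CACGTG (the E-box), CCGGAAG (an ETS site), the NRF1 palindrome, CCAAT, and as a GC box GGGCGGGG. The TATA box TATAAA, the AP-1 site TGACTCA and the CArG box were searched too, and a match on the opposite strand is capitalised as the complement reads. The CDK9 window is chr9:127785784-127786033, plus strand, and the CCNT1 window shown is chr12:48716708-48716957, minus strand. The CCNT2 window is chr2:134918572-134918821, plus strand, and the AFF4 window is chr5:132963635-132963884, minus strand. CCNT1 has a further annotated window (chr12:48696239-48696488, minus strand), not shown, in which none of the motifs was found.
CDK9: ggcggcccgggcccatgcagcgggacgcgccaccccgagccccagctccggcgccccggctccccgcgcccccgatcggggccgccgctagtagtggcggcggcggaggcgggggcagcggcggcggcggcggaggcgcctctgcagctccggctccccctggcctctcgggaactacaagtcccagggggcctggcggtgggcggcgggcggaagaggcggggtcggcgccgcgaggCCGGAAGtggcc
CCNT1: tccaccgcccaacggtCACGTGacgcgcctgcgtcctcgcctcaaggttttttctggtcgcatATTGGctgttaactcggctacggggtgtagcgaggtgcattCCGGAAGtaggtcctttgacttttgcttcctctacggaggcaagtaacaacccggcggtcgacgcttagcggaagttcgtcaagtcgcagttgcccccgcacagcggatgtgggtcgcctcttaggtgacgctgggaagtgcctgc
CCNT2: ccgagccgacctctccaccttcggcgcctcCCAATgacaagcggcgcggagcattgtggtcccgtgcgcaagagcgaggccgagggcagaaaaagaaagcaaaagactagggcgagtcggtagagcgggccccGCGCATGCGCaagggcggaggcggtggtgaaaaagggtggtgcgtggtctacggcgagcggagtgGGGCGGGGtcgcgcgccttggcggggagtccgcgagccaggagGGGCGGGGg
AFF4: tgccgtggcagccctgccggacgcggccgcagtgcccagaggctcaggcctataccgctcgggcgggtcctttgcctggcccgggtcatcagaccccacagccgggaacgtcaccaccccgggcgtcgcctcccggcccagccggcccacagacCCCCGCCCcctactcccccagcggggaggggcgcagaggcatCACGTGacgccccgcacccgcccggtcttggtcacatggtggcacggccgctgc
CDK9 and CCNT1 both hold CCGGAAG, found in 8.52% of 35116 such windows. CCNT1 and AFF4 hold CACGTG, as does MLLT1 (6.34% of windows), and CCNT2 alone among the members holds the NRF1 palindrome (1.03%), its 10 capitals in the middle of the window. CCAAT, found in 32.0% of windows, stands in 2 of the windows shown, those of CCNT1 and CCNT2, and GGGCGGGG, found in 21.8%, in those of CCNT2 and AFF4. TATAAA (10.7% of windows) and TGACTCA (4.20%) are in no window of a member.

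For comparison, a stretch of the EGR1 promoter (chr5:138465359-138465418, plus strand) is shown because EGR1 was the only gene past the adjusted threshold with EGF.
EGR1: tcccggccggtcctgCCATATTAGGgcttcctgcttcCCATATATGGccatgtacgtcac
Its capitals mark both matches to the CArG box, the site of serum response factor. The CArG box was found in 1.16% of windows and in none of the members' windows, which says only that these letters are not there. EGR1 rose from 4.0 and 3.80 in unstimulated control to 7.69 and 7.57 with EGF, and from 4.14 and 4.05 to 7.14 and 7.91 in shELL, so the 4 stimulated arrays lay above all 4 unstimulated ones. The averaged difference was 3.58 on the log2 scale (limma adjusted p = 0.00152). FOS, another immediate-early gene, was at 2.13 and 1.39 in unstimulated control against 4.06 and 3.54 with EGF, and at 1.07 and 1.47 in unstimulated shELL against 2.59 and 3.06. Its averaged difference was 1.80 (limma unadjusted p = 7.8e-05, adjusted p = 0.209). IER2, also immediate-early, was at 3.08 and 2.10 against 5.04 and 4.79 in control and at 3.32 and 2.40 against 4.59 and 4.86 in shELL, an averaged difference of 2.10 (unadjusted p = 6.5e-05, adjusted p = 0.209). Neither passed the adjusted threshold, though the stimulated arrays of both lay above all the unstimulated ones.

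None of the 7 members passed an adjusted p of 0.05 in any of 7 comparisons (limma, Benjamini-Hochberg over all genes). EGR1 was the only gene to pass in any, 0.00619% of genes in each of the 3 EGF comparisons and 0% in the other 4. No member had an unadjusted p under 0.05 either, against 2.69% of genes for EGF in control, 2.47% for EGF in shELL and 3.17% for EGF averaged over the lines. For shELL against control these shares were 1.28% for unstimulated cells, 3.17% for stimulated cells and 2.64% for both averaged, and for the interaction 1.73%. In whole-culture RNA, fewer cells expressing a gene and less RNA per cell cannot be told apart.

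**Figure D1:**
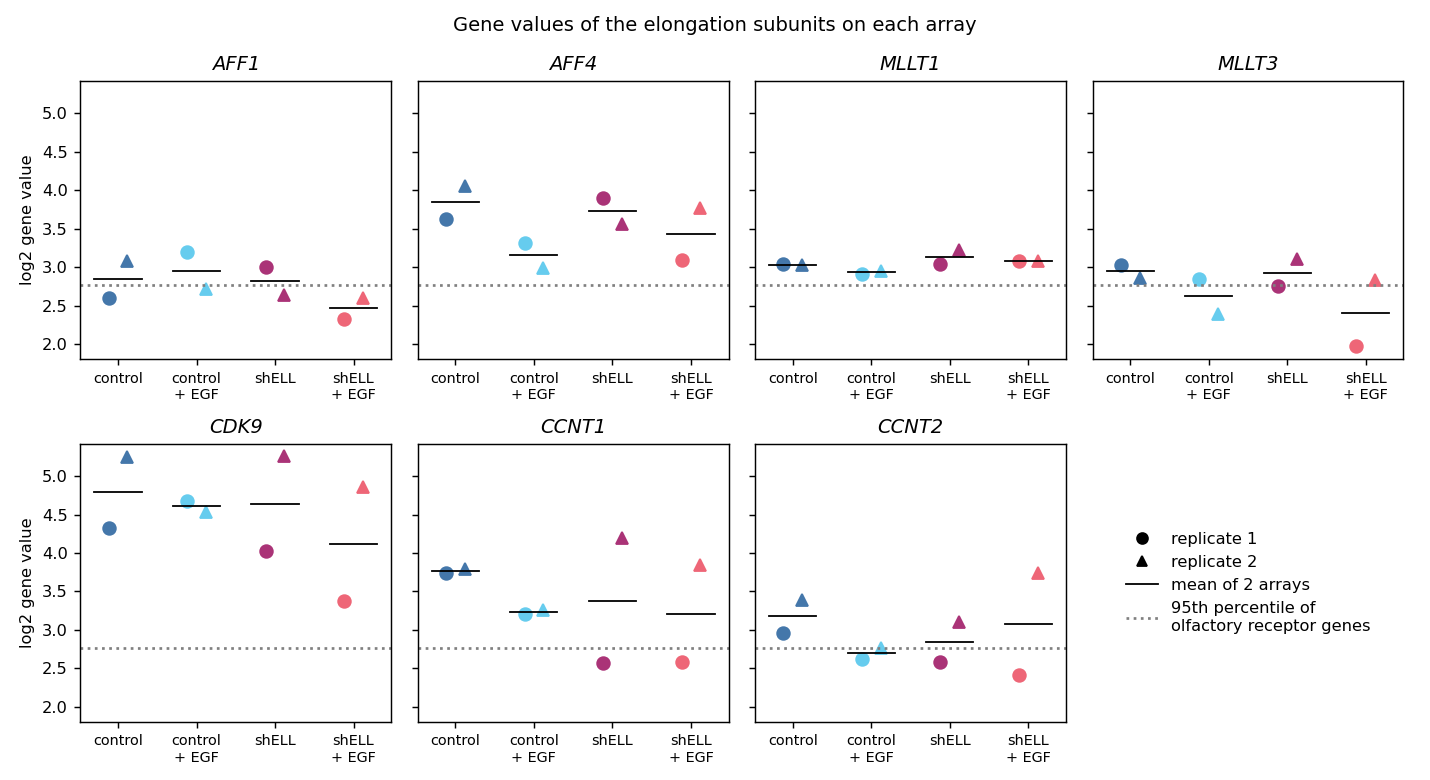
Log2 gene value (y axis) of each of the 7 members on every array, by group (x axis); circles are replicate 1, triangles replicate 2, bars the mean of 2 arrays, and the dotted line the olfactory receptor background of 2.77. MLLT1 stays between 2.92 and 3.22, while CDK9, CCNT1 and CCNT2 separate by replicate in both shELL groups.

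CDK9, the kinase (chromosome 9, 130548361 to 130552257 as deposited, on a build that the sources used here do not name), was the member with the widest spread. Its values were 4.33 and 5.25 in unstimulated control, 4.68 and 4.53 in control with EGF, 4.03 and 5.26 in unstimulated shELL, and 3.38 and 4.85 in shELL with EGF. All 8 lay above background, replicate 2 was the higher array in 3 of the 4 groups, and every pair of groups overlapped. Its within-group SD of 0.75 stood at the 94.0th percentile of all genes. The EGF difference averaged over the lines was -0.35 (95% interval -1.27 to 0.56), which leaves room for changes of more than 2-fold downward. Without replicate 1 of shELL with EGF it was -0.02.

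CCNT1, which is cyclin T1 (chromosome 12, 49086898 to 49110711), was at 3.74 and 3.80 in unstimulated control and at 3.21 and 3.26 with EGF, so both stimulated control arrays were lower. In shELL it was at 2.57 and 4.19 unstimulated and at 2.58 and 3.84 with EGF, where replicate 1 of each group fell under background and replicate 2 did not. Its EGF difference was -0.53 in control and -0.17 in shELL, each with an SE of 0.55. The control arrays were thus far closer to each other, with SDs of 0.04 in each group (n = 2), than the shELL arrays, with SDs of 1.14 and 0.89 (n = 2). The SE is equal in both lines because 1 spread was estimated for all 4 groups, so it is not that of the control arrays alone. The averaged EGF difference of -0.35 was 0.09 without replicate 1 of shELL with EGF.

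CCNT2, which is cyclin T2 (chromosome 2, 135676450 to 135714545), read 2.96 and 3.39 in unstimulated control and 2.63 and 2.77 with EGF. In shELL its values were 2.58 and 3.10 unstimulated and 2.41 and 3.75 with EGF. It lay above background on 4 arrays, and its highest and lowest values were the replicates of 1 group, shELL with EGF. The interaction, 0.72 (95% interval -0.70 to 2.14), was the largest of the 7, but it was -0.16 without replicate 2 of shELL with EGF. The EGF difference averaged over the lines was -0.12, or 0.17 without replicate 1 of shELL with EGF.

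AFF4, a scaffold of the complex (chromosome 5, 132216757 to 132299258), had the largest EGF difference of the members in control and averaged over the lines. In shELL those of CDK9 and MLLT3 (-0.53 each) and of AFF1 (-0.36) were larger in size than that of AFF4 (-0.29). AFF4 was at 3.63 and 4.06 in unstimulated control and at 3.31 and 3.0 with EGF. In shELL it was at 3.90 and 3.56 unstimulated and at 3.10 and 3.78 with EGF. All 8 arrays were above background; the EGF arrays were lower in control without overlap, while in shELL they overlapped. The averaged difference was -0.49 (95% interval -1.04 to 0.06, unadjusted p = 0.0759, adjusted p = 0.901), and -0.29 without replicate 1 of shELL with EGF.

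AFF1, the related scaffold (chromosome 4, 87928154 to 88062071), was close to background throughout, above it on 3 of 8 arrays. Its values were 2.60 and 3.08 in unstimulated control, 3.19 and 2.72 in control with EGF, 3.0 and 2.64 in unstimulated shELL, and 2.33 and 2.60 in shELL with EGF. Both shELL arrays with EGF lay below both control arrays with EGF, a difference of -0.49 (95% interval -1.24 to 0.25), or -0.33 without replicate 1 of shELL with EGF. Of all genes, 14.5% were lower in that comparison without overlap.

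MLLT1, the YEATS domain protein ENL (chromosome 19, 6212966 to 6279905), was the steadiest member. Its values were 3.04 and 3.03 in unstimulated control, 2.92 and 2.96 in control with EGF, 3.04 and 3.22 in unstimulated shELL, and 3.08 and 3.08 in shELL with EGF. All lay just above background, and the within-group SD of 0.07 stood at the 0.508th percentile of all genes. The averaged EGF difference was -0.07 (95% interval -0.51 to 0.36) and the averaged shELL difference 0.12 (95% interval -0.32 to 0.55). Those intervals come from a spread pooled partly over all genes, and are wider than the gene's own replicates alone would give.

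MLLT3, the paralogue AF9 (chromosome 9, 20345016 to 20620772), was above background on 5 arrays. It was at 3.03 and 2.86 in unstimulated control and at 2.85 and 2.40 with EGF. In shELL it was at 2.75 and 3.11 unstimulated and at 1.97 and 2.84 with EGF, so the dimmest array of the series was also its lowest. The averaged EGF difference was -0.42 (95% interval -1.01 to 0.16, unadjusted p = 0.134), and -0.17 without that array.

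The averaged EGF differences of all 7 members were below 0, from -0.49 for AFF4 to -0.07 for MLLT1, with a median of -0.35 against 0.05 over all genes. Of all 16145 genes, 7122 were below 0. Without replicate 1 of shELL with EGF, 5 of 7 were below 0, and without replicate 2 of unstimulated shELL 4 of 7 were. In control alone, AFF4, MLLT1, MLLT3, CCNT1 and CCNT2 were lower on both EGF arrays than on both unstimulated ones, which makes 5 of 7 members, where 15.7% of all genes were lower and 24.5% higher in that way. In shELL only AFF1 was, against 11.5% of genes lower and 10.4% higher. Over both lines no member separated 4 arrays from 4, as 1.13% of genes did downward and 1.58% upward. The 2 unstimulated control arrays also had higher GAPDH (8.03 and 9.10) than the 2 control arrays with EGF (7.48 and 6.85), and the part of that difference in the members' values was not tested. The EGF comparison in control and the comparison of the lines without EGF share the unstimulated control arrays.

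Across the lines the members went in both directions. Without EGF no member separated the lines, as 13.4% of genes did downward and 15.0% upward. The averaged shELL minus control difference was below 0 for 4 members, with CDK9 lowest at -0.32 and AFF1 at -0.26, and above 0 for MLLT1 (0.12), AFF4 (0.08) and CCNT2 (0.02). The median of -0.12 compares with -0.0026 over all 16145 genes, of which 8136 were below 0. No member separated the 4 shELL arrays from the 4 control arrays, as 1.47% of genes did downward and 1.11% upward. IRS4, an HEK293 marker, was at 4.62, 4.44, 4.52 and 3.60 in control and at 2.52, 3.12, 2.47 and 2.95 in shELL. All 4 shELL arrays were lower, by an averaged log2 difference of -1.53 (limma unadjusted p = 0.00037, adjusted p = 0.989), while NEFL, VIM and LIN28B differed by -0.03, 0.07 and 0.22. Its part in the members' differences was not tested. Every 95% interval of a member held 0, the narrowest being that of MLLT1 and the widest that of CDK9, from -1.23 to 0.59. Without EGF the differences ran from -0.38 for CCNT1 to 0.09 for MLLT1, and with EGF from -0.49 for AFF1 to 0.38 for CCNT2. With EGF, both MLLT1 values in shELL (3.08 and 3.08) were above both in control (2.92 and 2.96), as for 9.62% of all genes.

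The interaction, the EGF difference in shELL minus that in control, ran from -0.47 for AFF1 to 0.72 for CCNT2, and the unadjusted p was 0.281 or more for each member. With single arrays left out in turn, AFF1 alone kept the sign of its interaction throughout. The intervals were the widest of all, reaching from -2.17 to 1.48 for CDK9. No difference between the lines in the response of these genes to EGF was detectable with 2 arrays per group.

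**Figure D2:**
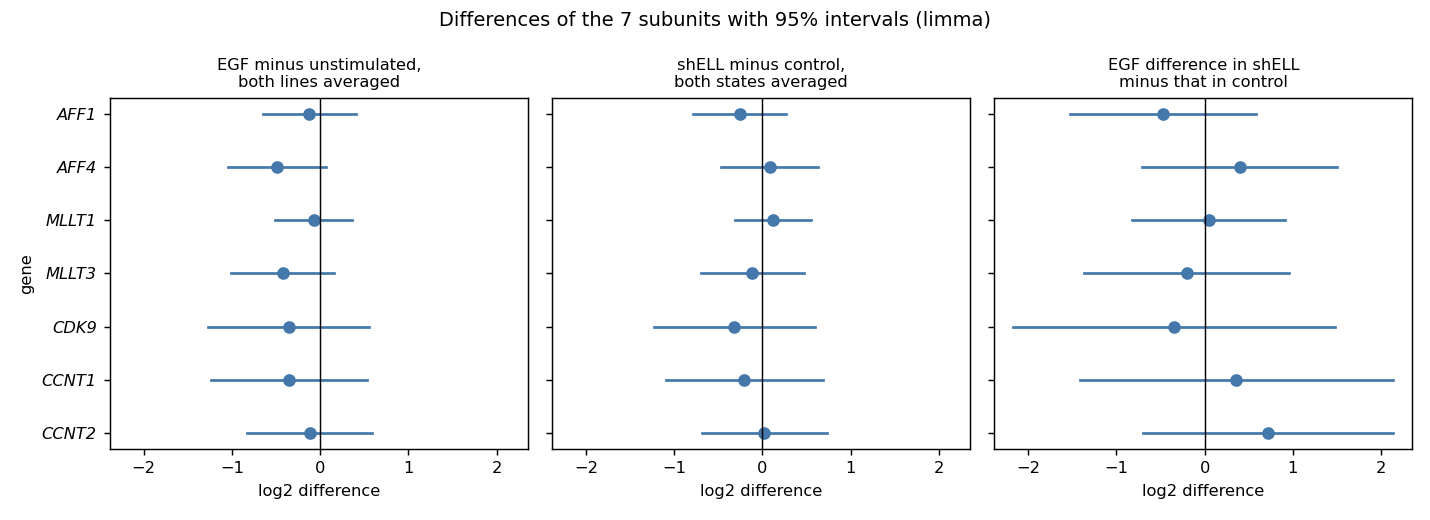
Log2 differences (x axis) of the 7 members (y axis) with 95% intervals from limma, for EGF averaged over the lines, shELL minus control averaged over both states, and the interaction. All 7 points lie below 0 in the EGF panel, and every interval in each panel includes 0.

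The 8 arrays also divided along GAPDH in a way that crosses the groups, a division chosen after values were seen. CCNT1 was at 3.74 to 4.19 on the 4 arrays with GAPDH over 8 and at 2.57 to 3.26 on the rest. CCNT2 was at 2.96 to 3.75 on the former and at 2.41 to 2.77 on the latter, so both cyclins were higher on the former without overlap, as were 5.17% of all genes, while 9.90% were lower on them without overlap. CDK9 ran from 4.33 to 5.26 against 3.38 to 4.68 and AFF4 from 3.56 to 4.06 against 3.0 to 3.90, both with overlap. MLLT1 ran from 3.03 to 3.22 against 2.92 to 3.08, and MLLT3 from 2.84 to 3.11 against 1.97 to 2.85. AFF1 covered much the same range on both sets, 2.60 to 3.08 and 2.33 to 3.19. What sets the GAPDH level of an array was not tested.

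**Figure D3:**
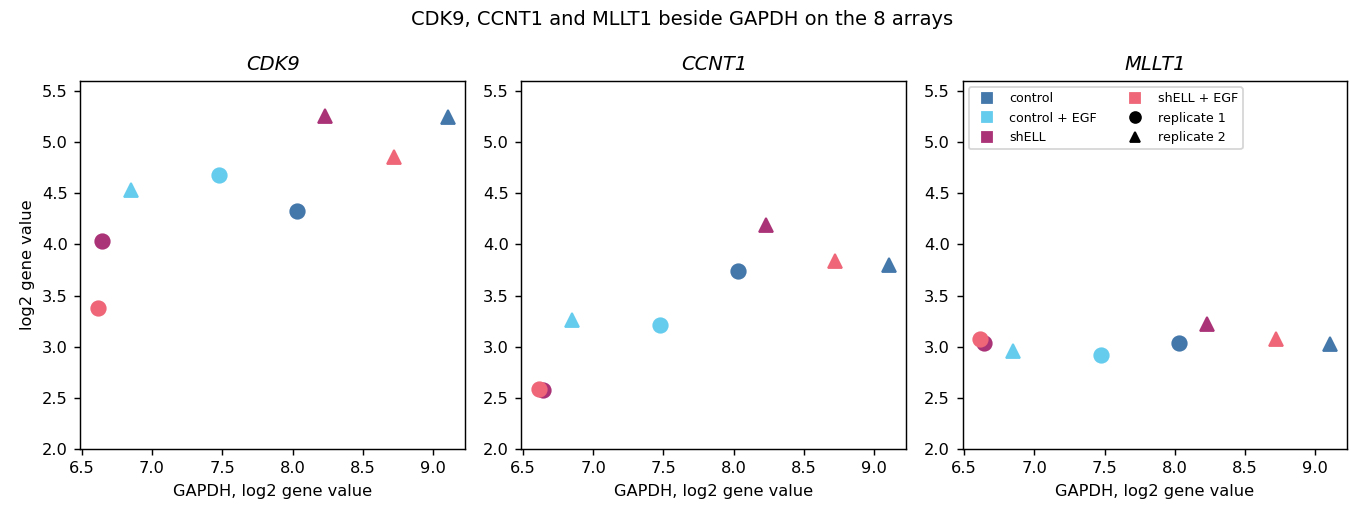
Log2 gene value of CDK9, CCNT1 and MLLT1 (y axis) against that of GAPDH (x axis) on the 8 arrays; colours are groups, circles replicate 1 and triangles replicate 2. CCNT1 lies between 2.57 and 3.26 on the 4 arrays with GAPDH under 8 and between 3.74 and 4.19 on the others, while MLLT1 stays near 3 throughout.

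The array-to-array patterns of the members were set side by side by the root-mean-square distance between log2 values over the 8 arrays, each gene centred on its own mean. AFF4 and MLLT3 were the closest pair, 0.30 apart, with 7.74% of all genes nearer to AFF4. CDK9 and CCNT1, the kinase and its main cyclin, came next at 0.31 apart, and 2.02% of all genes were nearer to CDK9 than CCNT1 was. CCNT1 and CCNT2 were 0.34 apart, with 3.20% of genes nearer to CCNT1. AFF1 and MLLT1 stood 0.33 apart, but 20.3% of genes were nearer to AFF1, and their own SDs over the arrays were 0.29 and 0.09. These values share arrays, normalization and the GAPDH division, and describe 8 arrays alone.

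The genes of most similar pattern were, by the same distance, HSPA9 (0.16), ECD (0.17) and SLC39A1 (0.18) for CDK9, and CIRBP (0.14), RRAS (0.14) and UBA3 (0.15) for CCNT1. For CCNT2 they were NAT10 (0.09), WTAP (0.12) and CARS2 (0.13). EIF5B (0.10), SEPT3 (now SEPTIN3, 0.10) and GFM1 (0.11) came nearest to AFF4, and CPVL (0.10), NEK3 (0.11) and C21orf91 (0.12) to AFF1. MLLT3 lay nearest to TNKS2 and PAPSS2 (0.06 each) and SUGP2 (0.07), and MLLT1 to C15orf39 (0.04), NPTN (0.05) and NBEA (0.05). No member was among the 3 nearest genes of another.

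Single exons were read through the probe sets. Of the 144 on member genes, 36 were above the probe-set background on all 8 arrays, 17 on none and 91 on some. CDK9 had 6 of 11 above it on all arrays, CCNT1 4 of 13, CCNT2 6 of 22, AFF4 7 of 27, AFF1 7 of 40, MLLT3 4 of 15 and MLLT1 2 of 16. CDK9, which has the shortest span at 3.90 kb, thus had the largest share of probe sets above background and MLLT1 the smallest. Of the 40 AFF1 probe sets, 38 were annotated to transcript NM_001166693 and 2 to NM_005935, which lie upstream of the rest. Those 2 had a median averaged EGF difference of 0.14 against -0.16 for the 32 of the 38 that were kept, and none passed the test.

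No member probe set passed an adjusted p of 0.05 in any comparison, nor did any of the 211764 tested (0% called in each of the 7). At an unadjusted p under 0.05, 5 of the 132 were found for EGF averaged over the lines, 3.22% being the share over all probe sets, and 3 for the averaged shELL difference, where the share was 2.54%. The numbers were 4 for EGF in control (3.36% of all), 5 for EGF in shELL (2.54%), 2 and 6 for shELL against control without and with EGF (1.21% and 4.33%), and 4 for the interaction (2.59%). For averaged EGF, 83 of the 132 differences were below 0 and 49 above, with a median of -0.22, where 49.4% of all 211764 were below 0 and the median was 0.01. CDK9 had 7 of 11 below 0, CCNT1 10 of 13, CCNT2 14 of 19, AFF4 15 of 25, MLLT3 9 of 14 and AFF1 21 of 34, whereas MLLT1 had 7 of 16. The gene values are summaries of these same probe sets.

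The probe set of smallest p in each member was taken by rule from the averaged and interaction comparisons, and its values are given in the order unstimulated, then EGF, or control, then shELL. Values without the dimmest array are an alternative chosen after the data were seen. For probe sets, HEXIM1 and CCNH they are differences of group means on the same normalized values. For ELL and the member genes above, normalization, filter and summary were redone without that array. In CCNT2, probe set 5 of 22 from the 5′ end (chromosome 2, 135700213 to 135700237) was at 0.43, 1.99, 0.33 and 0.31 in the control arrays and at 3.45, 2.48, 3.09 and 3.21 in shELL. All 4 shELL arrays were higher, by 2.29 (unadjusted p = 0.00161, adjusted p = 1.00). The control arrays all lay below background, as did replicate 2 of unstimulated shELL at 2.48. No other CCNT2 probe set was higher in shELL without overlap, and the gene value differed by 0.02. Without replicate 1 of shELL with EGF the probe-set difference was 2.32, and that of AFF1 described next was -1.75.

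In AFF1, probe set 29 of 40 (chromosome 4, 88055626 to 88055668) was at 3.92, 3.73, 3.08 and 3.83 in control and at 1.98, 1.97, 2.18 and 1.81 in shELL. All 4 shELL arrays were lower, with a log2 difference of -1.65 (unadjusted p = 0.00703, adjusted p = 1.00), and they lay below background where control lay above. Probe set 9 of AFF1 was also lower in shELL without overlap, at 5.49, 5.64, 5.81 and 5.53 in control against 4.0, 4.75, 4.39 and 5.05. These were the only AFF1 probe sets so placed; over all members 2 of 132 were lower and 2 higher, against 1.14% and 0.978% of all probe sets.

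In MLLT3, probe set 11 of 15 (chromosome 9, 20346449 to 20346544) was at 3.60, 2.90, 4.16 and 4.14 on the unstimulated arrays and at 2.60, 0.58, 0.85 and 1.83 with EGF. All 4 EGF arrays were lower, a difference of -2.23 (unadjusted p = 0.00311, adjusted p = 0.973), and -1.99 without the dimmest array. In CCNT1, probe set 10 of 13 (chromosome 12, 49089918 to 49089945) was at 3.96, 3.71, 4.78 and 4.26 unstimulated and at 1.16, 1.63, 0.04 and 4.09 with EGF. Its difference was -2.45 (unadjusted p = 0.00898, adjusted p = 0.973), or -1.43 without that array, and replicate 2 of shELL with EGF overlapped the unstimulated arrays. Counted over members, 2 probe sets were lower and 2 higher with EGF without overlap, where 1.12% and 1.20% of all probe sets were.

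The smallest p of AFF4 was at probe set 5 of 27 (-1.71 for EGF, unadjusted p = 0.0429, adjusted p = 0.973). It read 4.34, 5.70, 3.88 and 5.12 unstimulated and 3.95, 1.28, 2.46 and 4.53 with EGF, with overlap. Without the dimmest array the difference was -1.19. The smallest p of MLLT1 was at the last probe set, 16 of 16 (-1.97 for shELL, unadjusted p = 0.0145), or -1.70 without that array. It read 5.95, 3.70, 4.29 and 4.91 in control and 4.19, 2.20, 1.76 and 2.84 in shELL, also with overlap. The smallest p of CDK9 was likewise at its last probe set, 11 of 11, for the interaction. There CDK9 read 1.38 and 1.37 in unstimulated control, 3.10 and 2.67 in control with EGF, 2.35 and 2.50 in unstimulated shELL, and 0.95 and 1.80 in shELL with EGF. EGF arrays were higher in control and lower in shELL, an interaction of -2.57 (unadjusted p = 0.0278, adjusted p = 1.00), on values mostly under background.

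**Figure D4:**
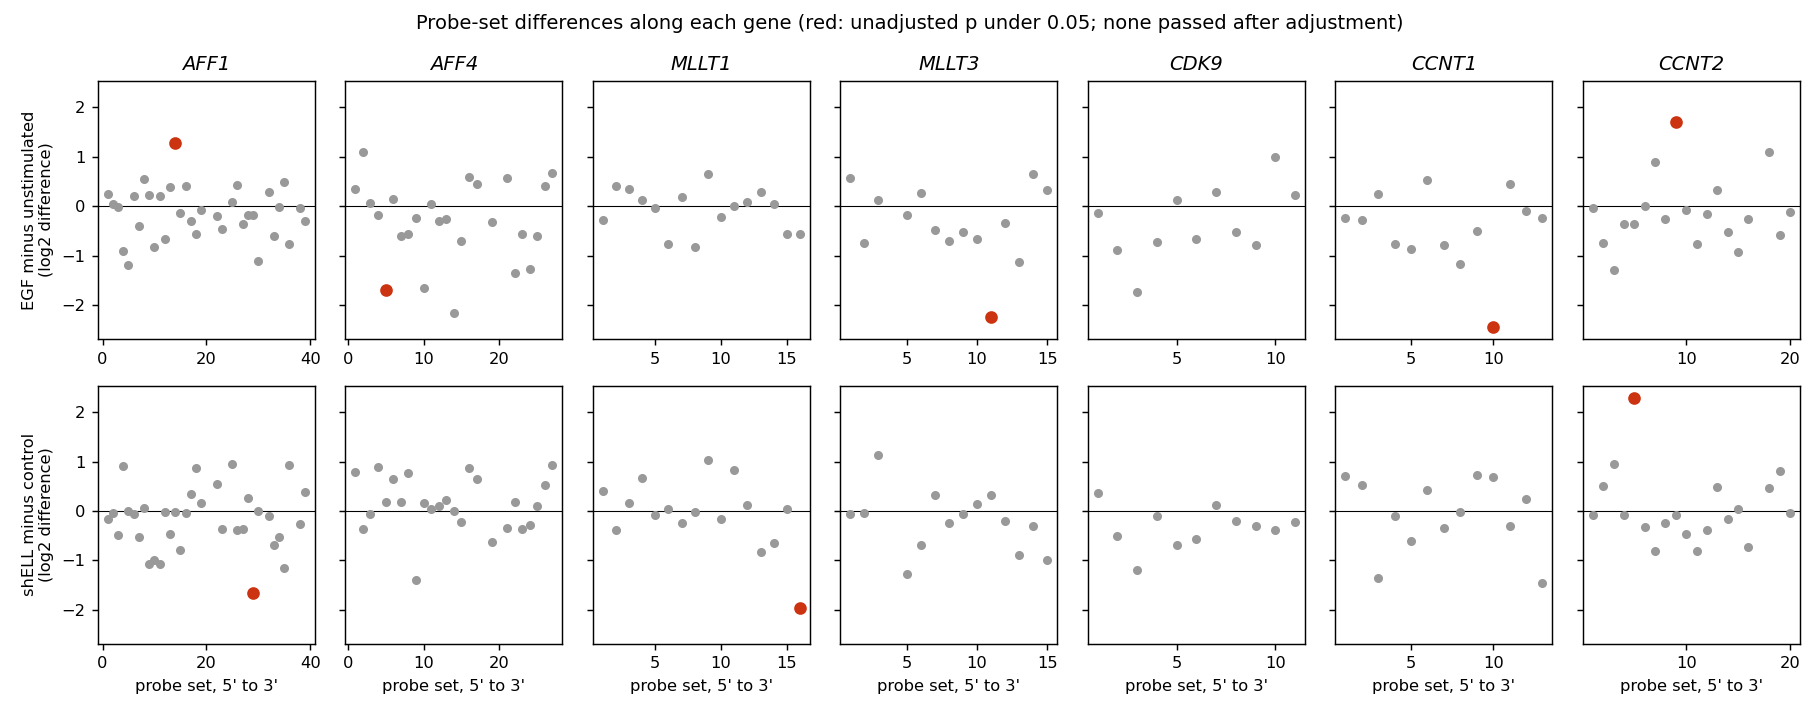
Log2 difference (y axis) of each kept probe set against its order from 5′ to 3′ in the gene (x axis), for EGF averaged over the lines (upper row) and shELL minus control averaged over both states (lower row); red points have an unadjusted p under 0.05. Red points are single and isolated, 1 at most in each panel, and none passed after adjustment.

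The other genes of the pathway were read from lists. None passed in any comparison among the 7 measured ELL family members and partners, 5 inhibitors and recruiters of P-TEFb, 5 pausing factors (NELF and DSIF), 6 PAF1 complex genes, 7 other AFF, MLLT and YEATS genes with DOT1L, and 8 other transcriptional kinases and cyclins. ICE1 and NELFB were not analysed here. The median averaged EGF difference of the P-TEFb inhibitors and recruiters was -0.17, with 4 of 5 below 0, and that of the other kinases and cyclins -0.19, with 5 of 8 below 0. For the PAF1 complex it was -0.20, with 4 of 6 below 0, and for the ELL family 0.17, with 3 of 7 below 0. The pausing factors had a median of 0.06 and the other AFF, MLLT and YEATS genes one of -0.12.

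HEXIM1, which holds P-TEFb inactive in the 7SK complex, was at 3.99, 4.19, 4.39 and 4.16 in control and at 4.59, 4.42, 5.55 and 4.90 in shELL. All 4 shELL arrays were higher, as for 1.11% of genes, and the averaged difference was 0.68 (95% interval 0.17 to 1.19, unadjusted p = 0.0143, adjusted p = 1.00). The highest value was on replicate 1 of shELL with EGF, and without that array the difference was 0.52. HEXIM1 was named as the gene of largest difference in its list, so the p does not allow for that choice. WHSC2 (now NELFA), a NELF subunit, was at 3.59 and 3.36 in unstimulated control and at 2.65 and 2.75 in unstimulated shELL, a difference of -0.78 (unadjusted p = 0.0330, adjusted p = 1.00), while with EGF the lines overlapped. Without EGF, 13.4% of all genes were lower in shELL without overlap. The averaged shELL difference of WHSC2 was -0.33 (95% interval -0.82 to 0.16). WHSC2 and the genes that follow were also named by size of difference, which a p does not allow for. TH1L (now NELFCD), another NELF subunit, had an averaged shELL difference of -0.44 (95% interval -1.18 to 0.29). SUPT4H1, a subunit of DSIF, was at 5.32 and 5.07 in unstimulated control, 5.79 and 5.62 in control with EGF, 5.90 and 5.11 in unstimulated shELL, and 4.46 and 5.51 in shELL with EGF. Its interaction of -1.03 (95% interval -2.36 to 0.30) was the largest in size of its list, and its lowest value was on the dimmest array. CCNH, the cyclin of the general factor kinase CDK7, had an averaged EGF difference of -0.48 (95% interval -1.08 to 0.13), which was -0.24 without the dimmest array.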

How the data were processed

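Total RNA of 8 HEK293 cultures was hybridised to Affymetrix Human Exon arrays. Deposited values are log2 probe-set values, made with Affymetrix Expression Console and RMA per the submitters' processing notes, with versions not given in the sources used here. Another deposited file held the authors' log2 group means, symbols and positions. The members, lists and settings were chosen with earlier results of these data known.

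Arrays were quantile normalized. Probe sets with 1 symbol and a mean at or above the 25th percentile were kept, and genes with at least 3 were summarised by median polish. Group means were fitted with limma 3.58.1 in R 4.3.3 over all 8 arrays (4 residual degrees of freedom), with two-sided tests, Benjamini-Hochberg adjustment over 16145 genes or 211764 probe sets, and a threshold of 0.05. The procedure was tested on simulated data. Background came from the 45 olfactory receptor genes left after the filter, and from 1265 olfactory receptor probe sets before it. From the other lists, at most 2 genes per list and comparison were named, those of largest difference with a mean above background, with ELL and the immediate-early genes, and for each member the probe set of smallest p and the 3 nearest genes. Alternatives covered normalization, filter, summary, variance, weights, arrays fitted, a replicate block and arrays left out. With an array left out, normalization, filter and summary were redone, except where differences of group means are named. The number of arrays limits the precision.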

Additional observations from a re-analysis of the deposited data

How the results depend on the processing

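No member gene and no member probe set passed an adjusted p of 0.05 in any of the 7 comparisons under any of the alternatives run, among them the values as deposited, both other filters, array weights and each array left out. The lowest adjusted p of a member gene was 0.130, for MLLT3 and EGF in shELL. The ELL level was 0.40 higher in shELL; over its 10 probe sets above background in control the difference was -0.0293, a reversal, and leaving out single arrays gave 0.02 to 0.57. On the values as deposited, the all-gene median of the averaged shELL difference moved to 0.15 and 0 of the 7 members were below 0; relative to that median 4 were below it, AFF1 (-0.15), MLLT3 (-0.07), CDK9 (-0.07) and CCNT1 (-0.10), the same 4 as in the normalized values. All 7 averaged EGF differences were below 0 there too, with the all-gene median at -0.36, and 5 of 7 were with the filter at the 50th percentile. Over the alternatives the averaged EGF difference ran from -0.71 to -0.13 for AFF4 and from -0.77 to -0.17 for MLLT3, while for CCNT1 it ran from -0.71 to 0.19. Deviations of same-numbered arrays correlated at 0.37 to 0.51 among unstimulated control and both shELL groups but at -0.31 to -0.16 between these and control with EGF, so the numbers were not taken to pair the arrays; with the replicate block 0 members were called and the AFF4 difference of -0.49 had an adjusted p of 0.839. The 2 arrays per group limit what could be detected.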
